A study of Mus musculus with 6 samples.

Results

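The mitochondrial ribosomal protein genes were taken as all genes whose symbol in the platform annotation starts with Mrpl or Mrps, with pseudogenes left out, and each gene was read from its brightest probe set that names no other gene. The rule gave 77 of the 19938 genes that such probe sets cover, 48 with an Mrpl and 29 with an Mrps symbol. Mrpl53 was found only on a probe set shared with another gene, and no value is given for it. By known structure the 77 genes encode 50 proteins of the large subunit, Mrps30 and Mrps18a among them, and 26 of the small subunit. The remaining gene, Mrps36, is no longer counted as a ribosomal protein and is now placed with the oxoglutarate dehydrogenase complex.

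The study compared dendritic cells grown from marrow that descends from naive or from ultraviolet (UV)-exposed donors. Recipients were female C57BL/6J mice injected with 2000000 bone marrow cells of congenic B6.SJL-Ptprca donors, a strain whose leukocytes can be told from the host's by the CD45.1 variant of CD45. Donors were naive in the naive-donor group (3 arrays). In the UV-donor group (3 arrays) their shaved back skin had been irradiated with broadband UV, with a dose that reached at most 8 kJ/m2. Mice were as a rule 6 to 10 weeks old when irradiated. Marrow of the recipients was cultured in both groups for 5 days with 10 ng/ml of GM-CSF and 10 ng/ml of IL-4 and enriched to over 95% cells carrying the integrin CD11c. The share of donor-derived cells in these cultures and a separate age for naive donors or recipients are not given in the sources used here. Prostaglandin E2 pellets are described in the design text, and the labels of the 6 arrays name none. RNA came from 3 preparations per group, which the labels do not tie to separate animals, so the p-values measure only the spread between preparations, which may be technical.

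Mitochondria keep a small genome that encodes core subunits of the respiratory chain, and a ribosome of their own translates it. The RNA of that ribosome is made inside the organelle, while all of its proteins are encoded in the nucleus, made in the cytosol and imported. Part of these proteins have counterparts in the bacterial ribosome and the others are specific to mitochondria. In dendritic cells, mitochondrial respiration supports differentiation, and activation by microbial signals shifts metabolism towards glycolysis.

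The arrays were alike, with Pearson correlations over the tested genes of 0.9958 or more within a group and 0.9921 or more across groups. Itgax, which encodes CD11c, was bright in both groups, with mean log2 signals of 13.77 ± 0.021 (SD, n = 3) in the naive-donor and 13.73 ± 0.020 (SD, n = 3) in the UV-donor group. Of 13 tested dendritic-cell markers, Itgax among them, 10 had a higher value in the UV-donor group, and the mean log2 signal of the list ran from 11.81 to 11.90 over naive-donor arrays and from 11.98 to 12.05 over UV-donor arrays. Cd209a, a C-type lectin of dendritic cells, was the called gene of that list, with a difference of 0.59 (adjusted p = 0.0199, limma). The mean log2 signal of 15 neutrophil marker genes ran from 8.67 to 8.82 over naive-donor arrays and from 8.98 to 9.15 over UV-donor arrays, and 12 of the 15 had a higher value in the UV-donor group. S100a8, a neutrophil calcium-binding protein, was 1 of 2 called genes of that list, with a difference of 0.77 (adjusted p = 0.0365, limma). All 7 tested progenitor markers had a higher value, with mean signals of 7.49 to 7.62 against 7.86 to 7.92. Of these 7, 1 was called (adjusted p = 0.0387, limma). It was not Cd34, which differed by 0.76 (adjusted p = 0.120, limma). Of 11 tested macrophage markers, 6 had a higher and 5 a lower value, with differences from -0.996 to 0.634. In that list 1 gene was called, with a higher value. The part of these marker differences in the values below was not tested. In bulk RNA such as this, fewer cells of a type and less RNA per cell cannot be told apart.

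No mitochondrial ribosomal protein gene differed between the groups at an adjusted p under 0.05 (limma, Benjamini-Hochberg over 13956 tested genes), where 0.172% of all tested genes did. All 77 genes had passed the filter on dim genes, the dimmest of them at the 48.62 percentile of all genes. Of the 77, 60 had a higher and 17 a lower value in the UV-donor group, and the median log2 difference (UV-donor minus naive-donor) was 0.034, or 1.02-fold. Over all tested genes the median was 0.0016, with 50.6% of the values higher. The count of 60 depended on the scaling of the arrays. It was 46 of 77 after centring the array medians, 44 after cyclic loess and 36 after quantile normalization, and those scalings were applied on top of the deposited values. The median over all tested genes moved as well. After centring it was -0.012, beside 0.020 in the members. After cyclic loess the values were -0.0013 and 0.013, and after quantile normalization -0.012 and -0.0016.

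At an unadjusted p under 0.05, 7 members (9.09%) had a higher value, beside 9.6% of all tested genes, and 0 had a lower one, beside 5.49%. The higher count was thus close to the share over all genes. It was 3 without naive-donor array 1, UV-donor array 1 or UV-donor array 3, and 4 without naive-donor array 3. In 9 members (11.7%) every UV-donor value lay above every naive-donor value, against 12.4% of all tested genes. In 2 members (2.6%) every UV-donor value lay below, against 9.37%.

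The log2 differences ran from -0.088 for Mrps10 to 0.21 for Mrpl18. In 63 of the 77 genes (81.8%) the difference was under 0.1 in size, compared with 69.5% of all tested genes. The 95% interval of the difference lay within a 1.25-fold change either way in 73 members (94.8%), compared with 85.6% of all tested genes. It lay within 1.5-fold in all 77, compared with 97.1%. The median standard error of a member's difference was 0.058, with a range from 0.044 to 0.13, and the median SD within groups was 0.071, near the 0.073 of all tested genes.

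**Figure D1:**
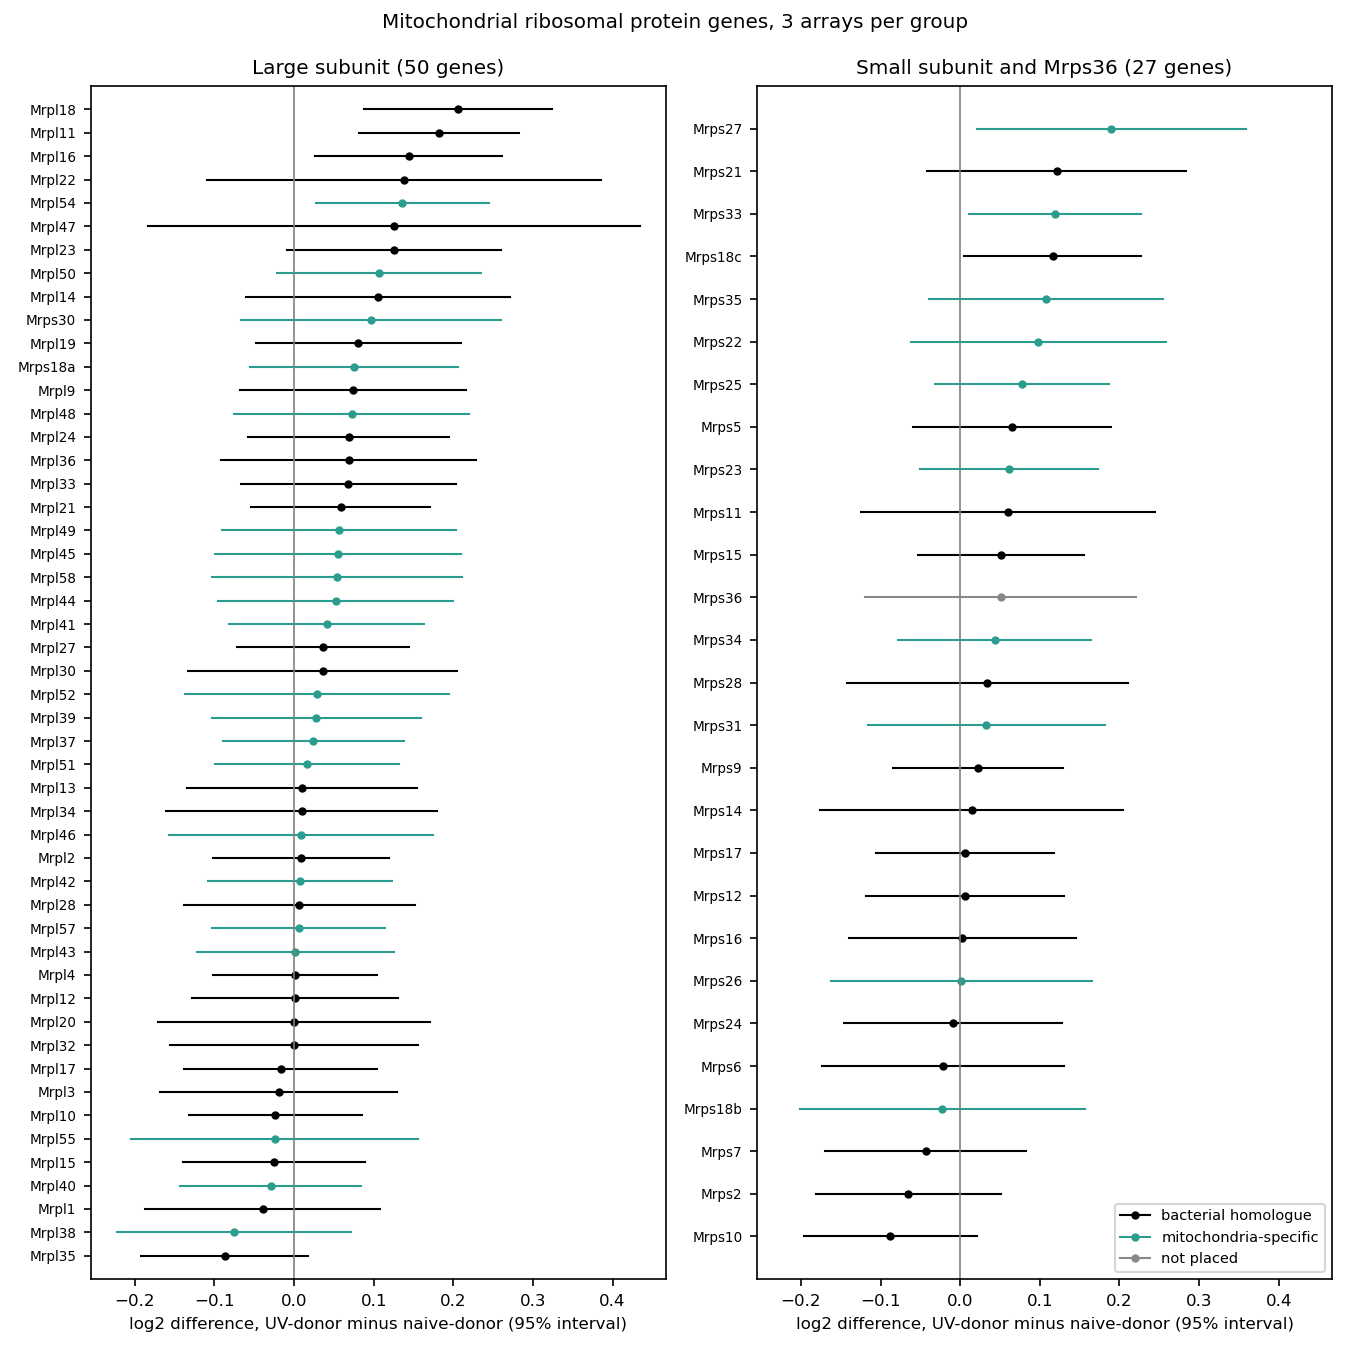
Log2 difference between the UV-donor and naive-donor groups (x axis, points) with its 95% interval (bars) for each mitochondrial ribosomal protein gene, ordered by size. The 50 genes of the large subunit are on the left, and the 26 of the small subunit with Mrps36 are on the right. Colours mark whether the protein was listed as having a bacterial homologue. Points crowd near 0 between -0.088 and 0.21, and the widest intervals are those of Mrpl47 and Mrpl22.

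In the large subunit, the 29 genes with a bacterial homologue had a median difference of 0.036, with 21 of 29 values higher. The 21 genes of mitochondria-specific proteins had a median of 0.029, with 18 of 21 higher. Neither group held a called gene. A higher value with an unadjusted p under 0.05 was found for 3 of the 29 and 1 of the 21, beside 9.6% of all tested genes.

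The stalk of the large subunit recruits the GTPases that drive translation, and 4 of its 5 listed genes were tested. Mrpl11, the stalk-base protein, had log2 signals of 9.79, 9.80 and 9.83 on the naive-donor arrays and 10.02, 9.98 and 9.97 on the UV-donor arrays. The groups did not overlap, and the difference of 0.18 ± 0.044 (SE, n = 3 per group), a 1.13-fold difference, carried the smallest adjusted p of all members, 0.152 (limma). Mrpl54, a mitochondria-specific protein of the stalk base, read 10.19, 10.28 and 10.25 against 10.41, 10.36 and 10.36, again without overlap, and differed by 0.14 (adjusted p = 0.247, limma). The other two stalk genes lay close to 0. Mrpl12, which forms the mobile stalk and is also known to bind the mitochondrial RNA polymerase, read 10.69, 10.68 and 10.81 against 10.75, 10.66 and 10.76, and the groups overlapped with a difference of 0.00066 whose sign turned under 3 other scalings. Mrpl10, which anchors Mrpl12, differed by -0.023.

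The central protuberance sits on top of the large subunit near the small one, and its 6 genes had a median difference of 0.023, with 4 values higher. Mrpl18, the homologue of the bacterial protein that binds 5S rRNA, showed the largest difference of all members. Its signals were 9.93, 9.96 and 9.97 on the naive-donor arrays and 10.23, 10.16 and 10.09 on the UV-donor arrays, so the lowest UV-donor array still lay above the highest naive-donor array. The difference was 0.21 ± 0.051 (SE), or 1.15-fold (adjusted p = 0.157, limma). Its neighbours in the protuberance, the mitochondria-specific Mrpl38 and Mrpl40, had differences of -0.075 and -0.029, with overlapping groups.

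Near the catalytic centre, Mrpl16, which lies close to the site where the incoming tRNA is accommodated, read 10.26, 10.16 and 10.16 in the naive-donor group and 10.29, 10.38 and 10.35 in the UV-donor group. The groups did not overlap and differed by 0.14 (adjusted p = 0.255, limma). Mrpl3, which also reaches towards the catalytic centre, read 10.71, 10.74 and 10.54 against 10.61, 10.61 and 10.71, and its difference of -0.019 was well within the spread of the arrays. Mrpl35 was the large-subunit gene with the lowest difference. It read 10.79, 10.76 and 10.73 against 10.64, 10.68 and 10.70, with every UV-donor array below every naive-donor array, and differed by -0.087 ± 0.046 (SE; adjusted p = 0.400, limma).

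The exit tunnel, through which the new protein chain leaves towards the inner membrane, was represented by 8 genes with a median difference of 0.062 and 7 higher values, of which 0 had an unadjusted p under 0.05. Mrpl23, a homologue of a bacterial tunnel-exit protein, differed by 0.13 (adjusted p = 0.358, limma), with 11.59, 11.73 and 11.59 against 11.74, 11.83 and 11.72. The groups overlapped through a single naive-donor array. Mrpl45, which attaches the ribosome to the inner membrane, differed by 0.055, and Mrpl44, a protein with a ribonuclease III-like fold, by 0.052. Both lay within the spread between arrays.

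Of the remaining named genes of the large subunit, Mrpl50 differed by 0.11 (adjusted p = 0.398, limma) and its groups did not overlap, with 9.84, 9.84 and 9.75 against 9.99, 9.91 and 9.84. Mrps30, a large-subunit protein despite its symbol, differed by 0.097, and Mrpl41 by 0.041. Mrpl1, the protein of the L1 stalk through which used tRNAs leave, differed by -0.039 and Mrpl15 by -0.025. None of these differences exceeded the test's threshold.

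In the small subunit, the 16 genes with a bacterial homologue had a median difference of 0.010 and 11 higher values. The 10 mitochondria-specific genes had a median of 0.069 and 9 higher values. The difference between those medians was not tested. Higher values with an unadjusted p under 0.05 were found for 1 of the 16 and for 2 of the 10, beside 9.6% of all tested genes.

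Mrps27, a pentatricopeptide-repeat protein of the small subunit, read 8.25, 8.34 and 8.12 on the naive-donor arrays and 8.54, 8.35 and 8.39 on the UV-donor arrays. The groups were separated by a narrow gap, and the difference was 0.19 ± 0.074 (SE; adjusted p = 0.280, limma). Mrps33, also mitochondria-specific, read 10.18, 10.26 and 10.18 against 10.34, 10.32 and 10.31 and differed by 0.12 (adjusted p = 0.290, limma). Mrps21, a homologue of bacterial S21, differed by 0.12 as well, but its groups overlapped, with 11.34, 11.43 and 11.53 against 11.68, 11.50 and 11.49 (adjusted p = 0.448, limma).

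The 3 paralogues Mrps18a, Mrps18b and Mrps18c descend from the same bacterial protein. They occupy different places, Mrps18a in the large subunit and Mrps18b and Mrps18c in the small one. In the lists above only Mrps18c was counted with the bacterial homologues, and Mrps18a and Mrps18b were counted as mitochondria-specific. Mrps18c read 9.75, 9.82 and 9.72 in the naive-donor group and 9.85, 9.91 and 9.87 in the UV-donor group, without overlap, and differed by 0.12 (adjusted p = 0.309, limma). Mrps18a differed by 0.076 and Mrps18b by -0.022, both with overlapping groups. In Mrps18b, UV-donor array 3 was the highest of the 6 at 11.67, and the other UV-donor arrays were the lowest at 11.40 and 11.38.

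Mrps12, a protein of the decoding centre, read 8.29, 8.33 and 8.41 against 8.28, 8.38 and 8.38, a difference of 0.0063 whose sign turned under 3 other scalings. Among genes with a lower value, Mrps10 read 9.04, 9.02 and 9.11 against 8.94, 8.97 and 8.99 with no overlap and differed by -0.088 ± 0.047 (SE; adjusted p = 0.415, limma). Mrps2, the homologue of bacterial S2, differed by -0.065, Mrps7 of the head by -0.043 and Mrps6 by -0.021. The groups overlapped in each of these 3. Mrps15 was the last of the 9 genes without overlap on the higher side, with a difference of 0.051.

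**Figure D2:**
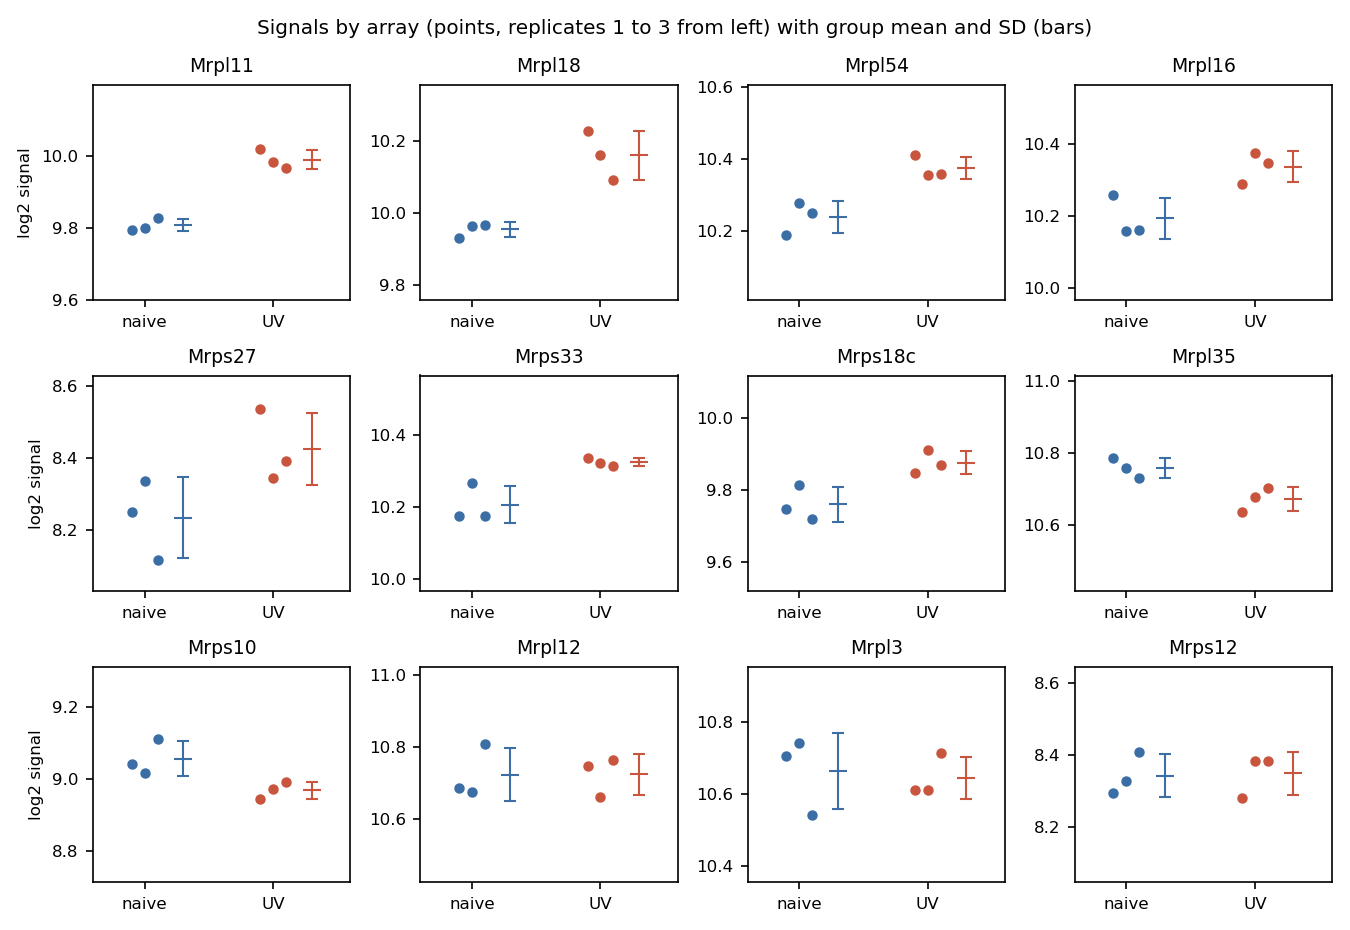
Log2 signal (y axis, each panel spanning 0.6) on each naive-donor and UV-donor array for 12 of the mitochondrial ribosomal protein genes, with the group mean and SD as bars beside the points. The groups are apart in Mrpl11, Mrpl18, Mrpl54, Mrpl16, Mrps27, Mrps33, Mrps18c, Mrpl35 and Mrps10, the last 2 of these with lower UV-donor values, and overlap in Mrpl12, Mrpl3 and Mrps12.

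The spread between arrays differed among members. Mrpl47 was the most variable, with naive-donor signals of 7.78, 8.02 and 8.32, a range of 0.54, and its difference of 0.13 had a standard error of 0.13. Mrpl22 was next, with a naive-donor range of 0.44. The difference between their groups could not be told from 0 at this spread.

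A second probe set of the same gene was present for 8 members. It read the same RNA preparations on the same arrays, so differences between preparations reach both probe sets. The comparison therefore bears only on the choice of probe set. It cannot decide whether the groups differ. For Mrps33 the second probe set differed by 0.13, beside 0.12 on the one used, and its 3 UV-donor values (10.04, 10.01 and 10.02) again lay above its 3 naive-donor values (9.86, 9.93 and 9.89). Mrpl23 gave 0.13 on both probe sets and Mrpl47 gave 0.13 and 0.12. Mrps5, Mrps36, Mrpl27 and Mrpl41 had the same sign on both. Mrpl51 was the exception, with 0.017 on the probe set used and -0.094 on the second.

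The members did not follow the arrays in the way the cell-division genes did. UV-donor array 3 was the lowest of the 6 arrays in 0 of the 77 members and the highest in 23. Over all 13956 tested genes it was the lowest in 1648 and the highest in 1657. The median deviation of the members from their own 6-array mean was 0.046 on that array, -0.0044 on UV-donor array 1, 0.00035 on UV-donor array 2, and from -0.021 to -0.0063 over the naive-donor arrays. Without UV-donor array 3, 44 of the 77 genes had a higher value in the UV-donor group and the median difference was 0.021. In the list of 30 genes of cell division, UV-donor array 1 was the highest in all 30, with a median deviation of 0.56, and UV-donor array 3 stood at 0.10. UV-donor array 3 was also high in some related lists described below, so its place was not particular to the members. It was the highest in 9 and the lowest in 1 of 26 genes of mitochondrial ribosome assembly. In 17 genes of cytosolic ribosome assembly it was the highest in 8 and the lowest in 0. In 16 genes of mitochondrial translation it was the highest in 3 and the lowest in 1.

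**Figure D3:**
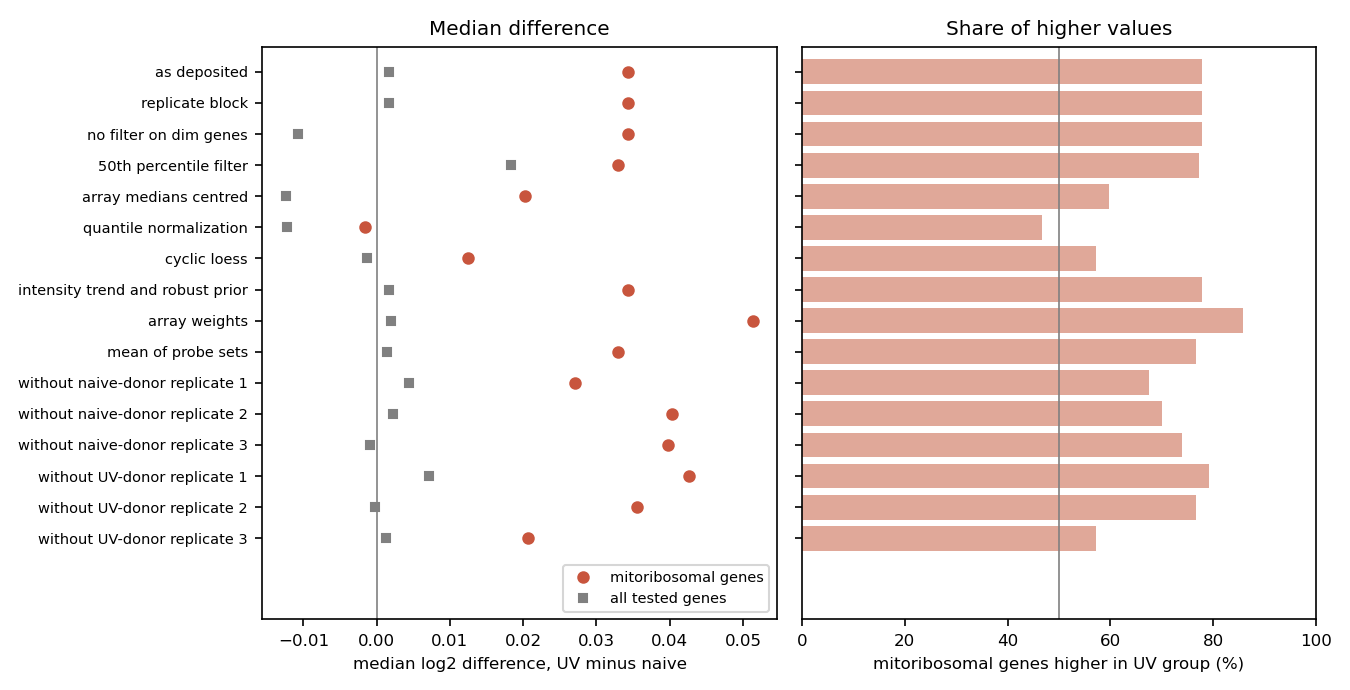
Median log2 difference (left, x axis) of the mitochondrial ribosomal protein genes (circles) and of all tested genes (squares) under each processing setting, with the percentage of these genes that have a higher value in the UV-donor group (right, bars from 0, line at 50%). The members' median lies right of 0 in all settings but quantile normalization, where it is -0.0016 and the share is 46.75%. The 50th percentile filter keeps 75 of the 77 genes.

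Genes that work with the mitochondrial ribosome were read from lists drawn from textbook knowledge, and none of their tested members was called. Of the ribosomal proteins that carry another name, 4 were tested, and 2 had a higher value. They were Chchd1, with a difference of 0.14 (adjusted p = 0.368, limma), and Ptcd3, with 0.090. Dap3, a protein of the small subunit, differed by -0.0073 and Gadd45gip1 by -0.0063.

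Among 26 tested assembly factors, 15 had a higher value, 3 with an unadjusted p under 0.05, and 11 a lower one, 1 with such a p. Over all tested genes, 9.6% had a higher and 5.49% a lower value with such a p. Nsun4, the methyltransferase that modifies the small ribosomal RNA and helps to join the subunits, read 8.16, 8.01 and 7.96 against 8.32, 8.30 and 8.28. The groups did not overlap, and the difference of 0.26 ± 0.059 (SE; adjusted p = 0.149, limma) was larger than that of any ribosomal protein gene. Rpusd4, a pseudouridine synthase of the large ribosomal RNA, differed by 0.23 (adjusted p = 0.226, limma).

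Of 16 tested translation factors and other proteins that act in mitochondrial translation, 9 had a higher value. With an unadjusted p under 0.05 there was 1 higher and 1 lower value, beside 9.6% and 5.49% of all tested genes. Mtrf1l, a release factor, was the higher one with a difference of 0.14. Letm1, an inner-membrane ion-transport protein that binds the ribosome, was the lower one with -0.11. The groups did not overlap in either gene. The elongation factor Tufm differed by 0.075 and Gfm1 by 0.12, with overlapping groups.

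Of 12 genes of mitochondrial DNA transcription and replication, 9 had a higher value. With an unadjusted p under 0.05 there were 3 of them, beside 9.6% of all tested genes. These 3 were Ssbp1, the single-stranded DNA-binding protein, at 0.17, Tfam, which packages and transcribes the mitochondrial genome, at 0.16, and the helicase Twnk at 0.13. Polrmt, the polymerase that makes the ribosomal RNAs of the organelle, differed by -0.011.

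Of 11 tested regulators of mitochondrial biogenesis, 7 had a higher value. Myc, a transcription factor that raises ribosome and mitochondrial gene expression, read 11.11, 11.14 and 10.95 against 11.32, 11.27 and 11.43 and differed by 0.27 (adjusted p = 0.157, limma), with no overlap. Nrf1, which activates nuclear genes of mitochondrial proteins, differed by 0.18 (adjusted p = 0.298, limma) and Gabpa, an ETS-family factor, by 0.069. Ppargc1a was too dim to be tested. The 17 genes of cytosolic ribosome assembly had a median difference of -0.023, with 7 higher values, of which Pes1 differed by 0.19 and the nucleolar Fbl by 0.12.

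The cell-division list stood far from the members in size. All 30 tested genes had a higher value, with a median difference of 0.52, a 1.44-fold difference. An unadjusted p under 0.05 was found for 28 of them, although 0 were called. Over all tested genes, 9.6% had a higher value with such a p. Its mean signal ran from 9.46 to 9.83 over naive-donor arrays and from 9.95 to 10.39 over UV-donor arrays. The mean signal of the mitochondrial ribosomal protein genes ran from 9.90 to 9.91 and from 9.93 to 9.98, so the ranges of the groups did not meet in either set. They did not meet over all tested genes either, with mean signals of 9.138 to 9.156 against 9.162 to 9.167. Mki67, a marker of cycling cells, differed by 0.47 (adjusted p = 0.201, limma).

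**Figure D4:**
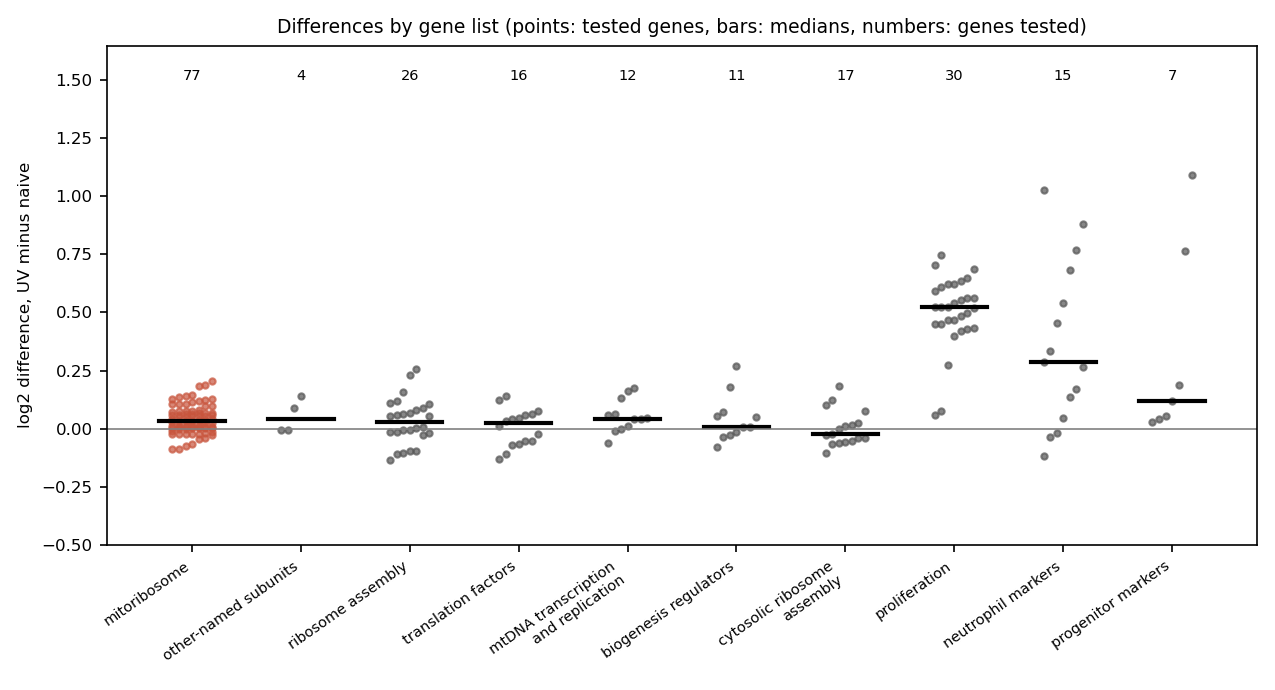
Log2 difference between the UV-donor and naive-donor groups (y axis) for each tested gene (points) of the mitochondrial ribosomal protein genes and of 9 further lists, with list medians as bars and the number of tested genes above each list. The 77 members lie in a band around a median of 0.034, while the 30 cell-division genes centre on 0.52 and the neutrophil markers on 0.29.

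The promoters of these genes were read from RefSeq windows of assembly GRCm38.p6 that run from 250 bases before to 50 bases after the annotated start, and 68 of the 77 genes had such a window. The letters CCGGAAG, the core bound by ETS-family factors such as GABPA, were found on either strand in 25 members (36.8%), compared with 12.9% of 17492 coding genes. AAGATGGC, the core of YY1, was found in 12 members (17.6%), compared with 3.57%. GCGCATGC, the core of NRF1, was found in 8 members (11.8%), compared with 3.94%. At least 1 of these 3 was present in 37 members (54.4%), compared with 18.7% of coding genes. TATAAA was present in 7.35% of the members, compared with 14.8%, and the E-box CACGTG in 7.35%, compared with 8.91%. A match is only a match of letters. The coding genes compared were not limited to those that passed the filter on dim genes, which all members passed. A comparison with bright genes alone was not made.

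Members with and without these letters had median differences that lay close together. The median log2 difference was 0.054 in members with the ETS letters and 0.028 in the 43 without, 0.016 and 0.036 for YY1, and 0.014 and 0.036 for NRF1. No test was made of these differences.

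The YY1 letters are shown for 11 of the 12 members that hold them, to compare their place relative to the start. In 8 of the 12 they lay 11 to 36 bases after the start and read AAGATGGC on the gene's own strand. In the other 4, of which 3 are shown, they lay before the start and read GCCATCTT. Each stretch below is 30 bases, 5′ to 3′ on the strand of the gene, with the matching letters in capitals.
Mrpl32, chr13:14613258-14613287 (- strand): cgcgctctGCCATCTTtacccggaaagtcg
Mrpl35, chr6:71823743-71823772 (- strand): aggcaggctgcAAGATGGCggcttccatct
Mrpl36, chr13:73330968-73330997 (+ strand): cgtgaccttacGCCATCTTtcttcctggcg
Mrpl37, chr4:107066822-107066851 (- strand): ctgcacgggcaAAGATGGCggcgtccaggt
Mrpl42, chr10:95501904-95501933 (- strand): cagattgaagcAAGATGGCgagcgcgcggt
Mrpl49, chr19:6057721-6057750 (- strand): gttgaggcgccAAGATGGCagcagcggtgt
Mrps11, chr7:78783013-78783042 (+ strand): ctacgggcgccGCCATCTTtctgtcttccc
Mrps18a, chr17:46111004-46111033 (+ strand): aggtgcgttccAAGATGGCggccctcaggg
Mrps24, chr11:5707652-5707681 (- strand): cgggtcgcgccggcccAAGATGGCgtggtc
Mrps27, chr13:99344789-99344818 (+ strand): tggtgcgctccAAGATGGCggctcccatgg
Mrps7, chr11:115604147-115604176 (+ strand): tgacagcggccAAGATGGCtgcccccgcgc

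In 2 of these 3 genes shown with the letters before the start, the match lay beyond the start of a gene that is read in the opposite direction. It began at base -242 of Mrpl32, whose neighbour Psma2 starts 205 bases away, and at -107 of Mrps11, which starts 42 bases from Mrpl46. Log2 differences of the 11 genes ran from -0.087 for Mrpl35 to 0.19 for Mrps27, and neither of these genes was called. Whether the place of the letters goes with the difference was not tested.

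The 250 bases before the start are shown for Mrpl18, the member with the highest difference, for Mrps18c, and for Mrps10, the member with the lowest, each on the strand of the gene. Capitals mark CCGGAAG or its reverse complement CTTCCGG and the E-box CACGTG. Mrpl18 and Mrps18c hold the ETS letters, in Mrps18c just after an E-box, and the stretch of Mrps10 holds none of the 5 motifs searched. The ETS match began at base -240 of Mrpl18, whose neighbour Tcp1 on the other strand starts 238 bases away. In Mrps18c it began at -156, and the neighbour Helq starts 159 bases away. Mrpl3, Mrpl17 and Mrps18b also hold these letters and had lower values. A higher value was found in 22 of 25 members with the letters and in 31 of 43 without. Whether the letters go with the difference was not tested.
Mrpl18, chr17:12916092-12916341 (- strand): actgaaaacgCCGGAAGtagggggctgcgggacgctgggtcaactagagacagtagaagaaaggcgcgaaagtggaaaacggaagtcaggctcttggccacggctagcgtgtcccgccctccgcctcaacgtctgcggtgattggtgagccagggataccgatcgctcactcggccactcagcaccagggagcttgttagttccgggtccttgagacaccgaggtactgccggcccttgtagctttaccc
Mrps18c, chr5:100798509-100798758 (+ strand): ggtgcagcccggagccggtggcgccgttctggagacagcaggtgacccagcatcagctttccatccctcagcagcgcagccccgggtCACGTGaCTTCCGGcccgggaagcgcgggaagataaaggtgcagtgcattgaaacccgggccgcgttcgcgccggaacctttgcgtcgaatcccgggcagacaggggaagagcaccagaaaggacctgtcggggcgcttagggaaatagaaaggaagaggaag
Mrps10, chr17:47368947-47369196 (+ strand): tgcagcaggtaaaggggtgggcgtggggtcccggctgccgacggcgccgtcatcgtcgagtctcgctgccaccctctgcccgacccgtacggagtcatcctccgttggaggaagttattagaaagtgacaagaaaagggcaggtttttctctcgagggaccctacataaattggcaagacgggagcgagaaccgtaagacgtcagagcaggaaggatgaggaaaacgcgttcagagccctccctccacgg

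Many members share their promoter region with a gene on the other strand. An annotated start of an opposite, non-overlapping coding gene lay within 1000 bases upstream for 24 of the 68 members with a window (35.3%), compared with 1483 of 17492 coding genes (8.48%). Those coding genes were again not limited to bright ones. Of the 24 neighbours, 23 were tested, and Mrps11 and Mrpl46 are each other's neighbour. Among the 21 tested neighbours that are not themselves members, 17 had a higher value in the UV-donor group, 6 of them with an unadjusted p under 0.05, beside 9.6% of all tested genes. Another 1 had a lower value with such a p, and 0 were called.

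Genes on the 2 sides of a shared region could have quite different values. Mrpl57 and Ska3, a kinetochore gene of dividing cells, start 76 bases apart. Mrpl57 read 10.27, 10.24 and 10.26 on the naive-donor arrays and 10.30, 10.21 and 10.29 on the UV-donor arrays, a difference of 0.0060 with overlapping groups. Ska3 read 7.66, 8.03 and 7.72 against 8.67, 8.25 and 8.21, with no overlap, and differed by 0.58 ± 0.14 (SE; adjusted p = 0.149, limma).

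Mrpl51 and the condensin gene Ncapd2, 614 bases apart, had differences of 0.017 and 0.52, and Mrpl27 and Eme1, an endonuclease subunit of DNA repair, 48 bases apart, had 0.036 and 0.45. These 3 pairs were chosen after their values were seen, as those whose neighbour had the highest difference, and the difference within a pair was not tested. Mrpl43 and the helicase gene Twnk, 116 bases apart, had differences of 0.0017 and 0.13.

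Among other pairs, some had values near each other on both sides and some did not. Mrps27 differed by 0.19 and its neighbour Ptcd2, which encodes a mitochondrial pentatricopeptide-repeat protein and starts 108 bases away, by 0.15. Mrpl18 differed by 0.21 and the chaperonin gene Tcp1, 238 bases away, by 0.073. Mrpl50 and Zfp189 had differences of 0.11 and 0.12. In Mrps5 and Zfp661 the signs were opposite, with 0.065 and -0.12.

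**Figure D5:**
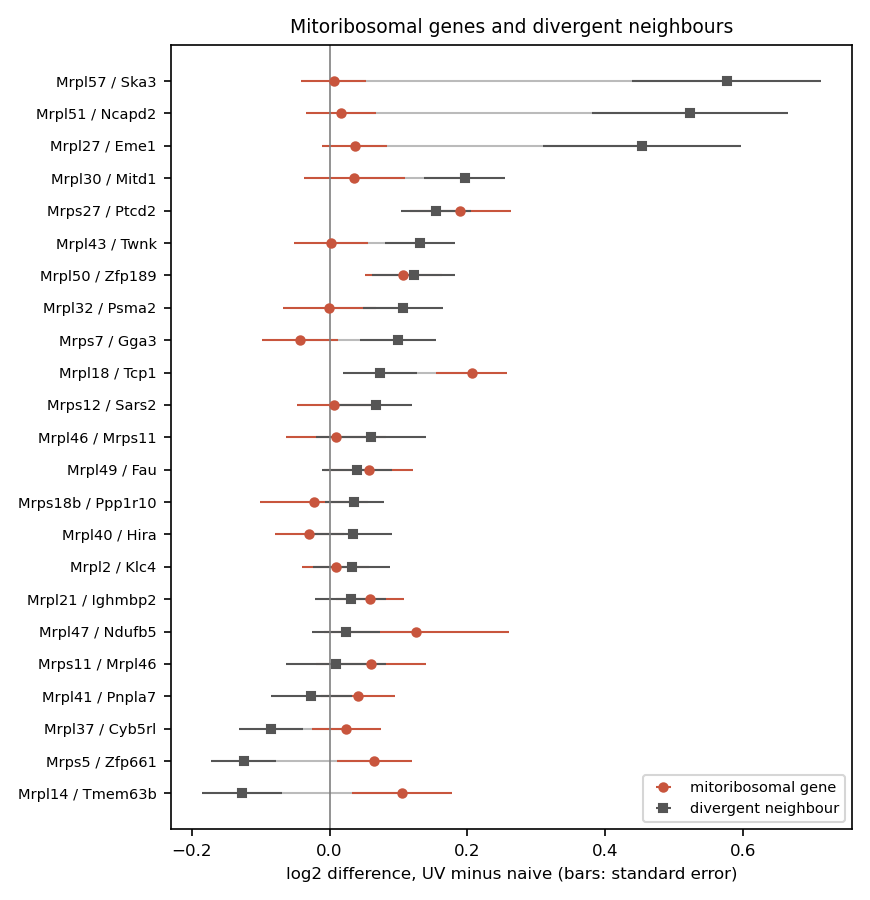
Log2 difference between the UV-donor and naive-donor groups (x axis) for each mitochondrial ribosomal protein gene (circles) and the gene that starts close by on the opposite strand (squares), with standard errors as bars. Ska3, Ncapd2 and Eme1 lie at 0.45 to 0.58, while Mrpl57, Mrpl51 and Mrpl27 beside them lie between 0.0060 and 0.036.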

How the data were processed

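RNA of 6 preparations was measured on 6 Affymetrix whole-transcript arrays, and the labels gave each array's group and replicate number. The deposited values are log2 signals per probe set; RMA, oligo and limma are named in the submitters' processing notes, without versions. RMA corrects background, normalizes probe quantiles and summarises probes, so small shifts between arrays can remain in the values. The number of arrays limits the precision.

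Of 35556 probe sets, 21789 named 1 gene. The brightest such probe set stood for each gene. A filter at the 30th percentile of mean signal removed dim genes and kept 13956. The UV-donor minus naive-donor difference was fitted with R 4.3.3 and its package limma 3.58.1, using default lmFit and eBayes. Tests were two-sided, p-values were adjusted by the Benjamini-Hochberg method over the 13956 genes, and genes were called at an adjusted p under 0.05. The code was tested on simulated data, and figures were drawn with matplotlib 3.10.9. Levels of different probe sets were not compared. All 77 members were matched to RefSeq (assembly GRCm38.p6) by Entrez identifier.

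The members and lists were chosen with earlier results of these data known. Named members were the 6 of smallest p per direction in the large and the 4 in the small subunit, with a set of 13 members of known role; other lists gave their 2 genes of smallest p, 8 regulators and factors, and Mki67, Itgax, S100a8 and Cd34. Members outside this rule and the neighbour genes were named after their values were seen, as were Dap3, Gadd45gip1 and Cd209a. Alternatives covered scaling, filters, variance settings, probe sets, the replicate block and leaving out each array. The sequence around 1 promoter match is not reported here.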

Additional observations from a re-analysis of the deposited data

How the results depend on the processing

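In each of the 15 alternatives, 0 members were called. Genes called over all tested genes, 24 as reported, numbered 0 with the replicate block, 15 after quantile normalization, 45 with an intensity trend and robust prior, 43 with array weights and 1 to 32 when 1 array was left out. The replicate block left the members at 60 higher and 17 lower values. Same-numbered arrays had correlations of deviations from the group mean of -0.135, -0.224 and 0.148. Such deviations sum to 0 within a group, so these values cannot decide whether same-numbered arrays are paired. The labels state no pairing. Members higher at an unadjusted p under 0.05, 7 as reported, numbered 3 after quantile normalization, 4 after cyclic loess and 3 to 8 when 1 array was left out, and those lower, 0 as reported, numbered 2 after quantile normalization and 2 after cyclic loess. The members' median difference was -0.0016 after quantile normalization and 0.013 after cyclic loess, beside -0.012 and -0.0013 over all tested genes. The cause of these shifts was not tested. Of 434 values of named genes under alternatives, 405 kept their sign and 29 turned, all of the latter from differences of 0.055 or less in size. With array weights, Mrpl15 became 0.0017, Mrps6 0.0066 and Mrps18b 0.041. After centring, quantile normalization and cyclic loess, Mrpl12 became -0.013, -0.019 and -0.018 and Mrps12 -0.0077, -0.050 and -0.012, and Mrpl41 became -0.022 after quantile normalization. Leaving out 1 array gave ranges of -0.086 to 0.026 for Mrpl1, -0.059 to 0.0047 for Mrpl40, -0.060 to 0.0036 for Mrpl15, -0.071 to 0.045 for Mrps6, -0.12 to 0.027 for Mrps18b, -0.023 to 0.043 for Mrpl12, -0.080 to 0.020 for Mrpl3, -0.0030 to 0.068 for Mrpl41, -0.0079 to 0.095 for Mrpl45 and -0.019 to 0.041 for Mrps12. With 3 arrays per group and a median standard error of 0.058, differences of the size of most members could not be told from 0.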
